A study of Arabidopsis thaliana with 18 samples.

Results

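The genes described here are the protein-coding genes of the Arabidopsis thaliana chloroplast genome whose products form the photosynthetic complexes. They were chosen by symbol alone: psa, psb, pet or ndh followed by 1 capital letter, atpA to atpI, or rbcL, on a probe set that the platform's annotation gives to a single gene. The rule found 43 genes with 1 probe set each, of 22746 probe sets tested. All 43 lie in the plastid genome of the RefSeq gene table (assembly TAIR10.1). Photosystem II has 15 of them, the NADH dehydrogenase-like (NDH) complex 10, the cytochrome b6f complex 6, ATP synthase 6 and photosystem I 5. The remaining gene is rbcL, for the large subunit of Rubisco. A further probe set, for ndhB, is shared by 2 loci and was left out.

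The chloroplast keeps a small circular genome that is present in many copies per cell, and each complex named above is built from subunits made there together with subunits imported from the cytosol. Most of these genes are transcribed by a bacterial-type RNA polymerase encoded in the plastid, guided by nuclear sigma factors, and a phage-type nuclear polymerase serves others. Many are read as operons whose long transcripts are then cut, spliced and edited by nuclear-encoded RNA-binding proteins. Light is known to act on plastid transcription, mRNA stability and translation, and psbA and psbD are known for promoters or transcripts that respond to it.

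RNA was hybridised to Affymetrix arrays after separate preparation from the petioles and blades of rosette leaves 3 and 4, taken from wild-type seedlings grown on rockwool at 22 °C under unbroken white light until day 19. The labels read here name no accession for the plants. Petioles and blades were each taken after a pulse of far-red light and then 2 h of darkness (FRD), after 2 h of darkness alone (D), and after 2 h of further white light (WL), with 3 arrays for each of the 6 groups. Per the labels, replicates are biological and independent. FRD and D against WL ask what leaving the light did, and FRD against D asks for the effect of the pulse, which drives phytochromes to their inactive form.

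Each deposited value relates an array to the median of the WL arrays from its own tissue, so a ratio of 1 is the white-light level and log2 values are logarithms of that ratio. Levels of different genes, or of petiole and blade in white light, could not be compared, and no marker of either tissue could be read. In whole organs, fewer plastids or cells and less RNA per cell cannot be told apart. Standard Affymetrix labelling starts from poly(A) tails, which most chloroplast mRNAs lack; the primer used here is not given, and how this touches the values was not tested.

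The arrays numbered 3 stood apart for these genes. The median log2 ratio of the 43 genes was 0.18 to 0.46 in the 6 replicate 3 arrays, -0.17 to 0.27 in the replicate 1 arrays and -0.16 to 0 in the replicate 2 arrays. Medians over all probe sets stayed between -0.094 and 0.030 in the same 18 arrays. The control probe set for cytosolic 25S ribosomal RNA stood at 0.34 ± 0.25 log2 units in blade FRD, 0.97 ± 0.20 in blade D and -0.083 ± 0.22 in blade WL arrays (SD, n = 3). In petioles it stood at 0.15 ± 0.36 in FRD, 0.050 ± 0.26 in D and -0.047 ± 0.10 in WL arrays. Its part in the results was not tested. No value was missing among the 43 genes.

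**Figure D1:**
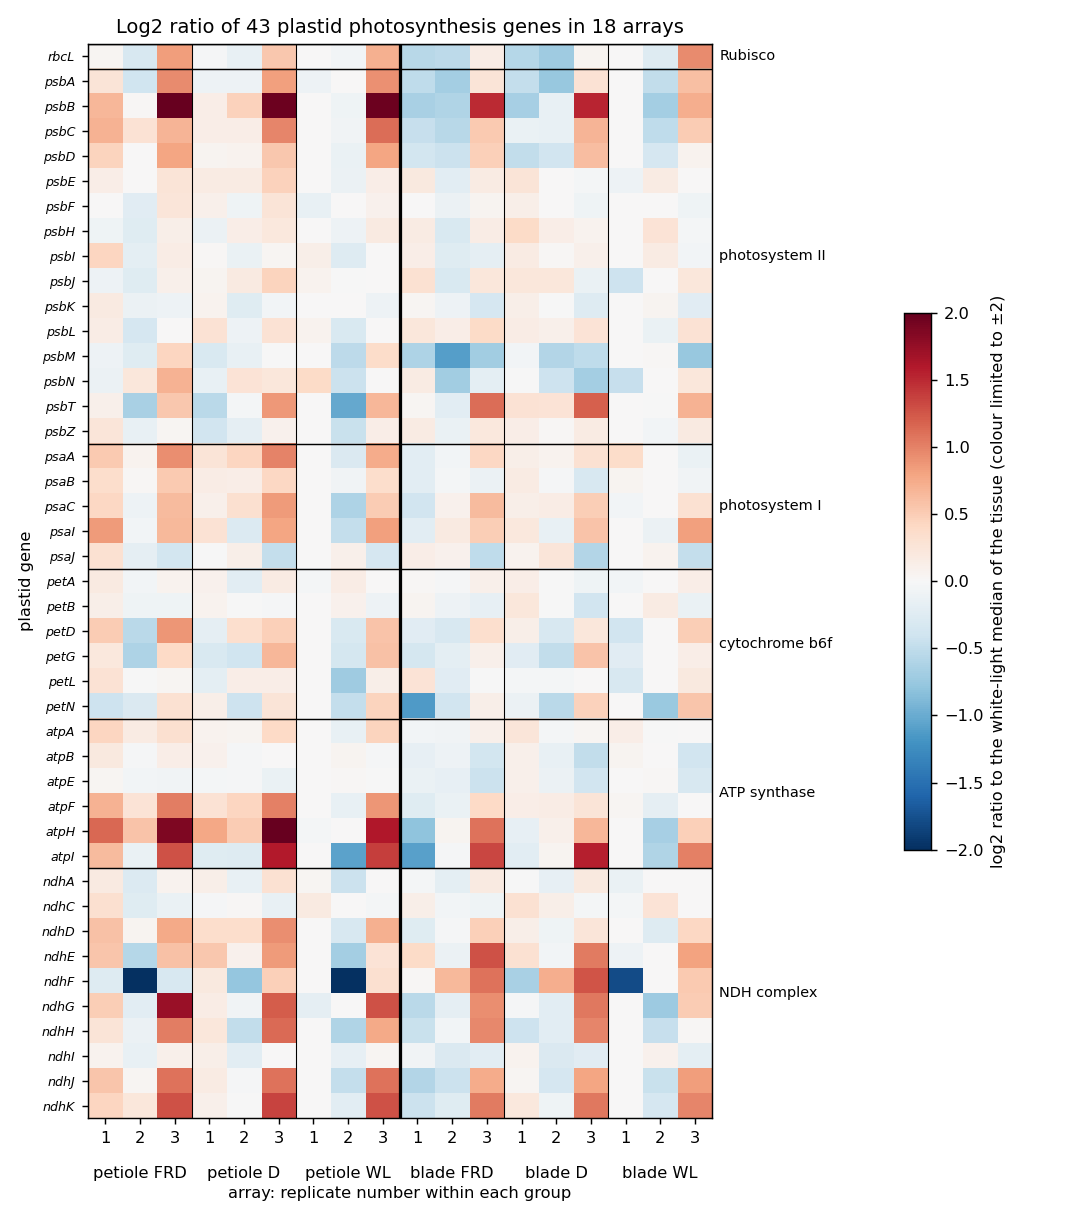
Log2 ratio of each of the 43 genes (rows, by complex) in each of the 18 arrays (columns, by group and replicate number), with 0 at the white-light median of the tissue and colour limited to ±2. Columns numbered 3 are redder than their neighbours in every group for many genes, with list medians of 0.18 to 0.46, and no block of columns stands out by light treatment.

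After 2 h without white light no transcript of the chloroplast genome's photosynthesis genes differed from its white-light level beyond the spread between arrays, in a fit that takes no account of the replicate number. Of the 43 genes, limma called 0 in any of the 9 comparisons (6 between light treatments and 3 of their difference between tissues) at a Benjamini-Hochberg adjusted p under 0.05. At an unadjusted p under 0.05 the count was also 0 in all 9. With the replicate number added to the fit as a block within each tissue, limma called rbcL in blades (adjusted p = 0.0109 for D and 0.0221 for FRD against WL). It also called ndhE for D against WL in petioles (adjusted p = 0.0365). In blades that fit called 14.1% of all probe sets for D and 14.2% for FRD against WL. For D against WL in petioles it called 8.16%. This block took the median residual SD of the 43 genes from 0.364 to 0.18 log2 units. The labels do not pair the samples by that number.

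For darkness alone in petioles this stands beside 5.6% of all probe sets called and 18.7% at the unadjusted threshold. For FRD against WL in petioles the background was 8.31% called and 20.7% unadjusted. In blades 11.2% of all probe sets were called for D against WL (24% unadjusted), and 11.2% for FRD against WL (23.9% unadjusted). The pulse itself left few calls anywhere: 1.09% in petioles (8.17% unadjusted) and 0.651% in blades (7.57% unadjusted). For the pulse, a count of 0 called among 43 genes is near the background of adjusted calls. Whether the counts differ from the unadjusted background of the pulse, or from the background of the comparisons with white light, was not tested.

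The median change of the 43 genes was small in each comparison. For D against WL it was 0.12 log2 units in petioles, beside -0.0044 over all probe sets, and 0.048 in blades, beside -0.020. For FRD against WL it was 0.15 in petioles, beside 0.0037, and -0.053 in blades, beside -0.028. In petioles 32 genes had a positive change and 11 a negative one in both of these comparisons, while in blades 28 were positive for D and 19 for FRD. These medians are not firm in sign. Without petiole WL replicate 2 or petiole D replicate 3 the petiole D median was -0.065 or -0.021, and without blade WL replicate 3 or blade FRD replicate 2 the blade FRD median was 0.058 or 0.034.

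With all replicate 3 arrays left out, an alternative chosen after seeing the data, the medians for D and FRD against WL were 0.14 and 0.19 in petioles and 0.087 and -0.10 in blades. No gene was called in any comparison in that fit, which called 3.1% to 8.27% of all probe sets in the comparisons with WL. For FRD against D it called 0.84% in petioles and 0.677% in blades. The unadjusted threshold was passed by 0 to 6 of the 43 genes. The share of all probe sets passing it in that fit was not counted, so these counts cannot be judged. Aligning the 75th percentiles of the arrays, a scaling that moves the median of all probe sets to between -0.29 and -0.35 in the comparisons with WL, was the single scaling tried that called any of the 43. It called 1 gene for D and 3 for FRD in blades, beside 22.1% and 20.4% of all probe sets. The replicate block, which is not a scaling, also called rbcL for D and FRD in blades and ndhE for D in petioles. Beside these stood 14.1%, 14.2% and 8.16% of all probe sets, in that order.

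How large a change these arrays could have missed differed between genes. The 95% confidence interval lay within 2-fold in either direction for 29 of the 43 genes for D against WL in petioles, and for 29 for FRD against WL. In blades the counts were 30 for D and 28 for FRD. Such intervals were held by 48.4% to 51.5% of all probe sets in the same comparisons. Within 1.41-fold the counts were 13 and 12 in petioles and 17 and 15 in blades, so smaller changes were not excluded for most genes.

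**Figure D2:**
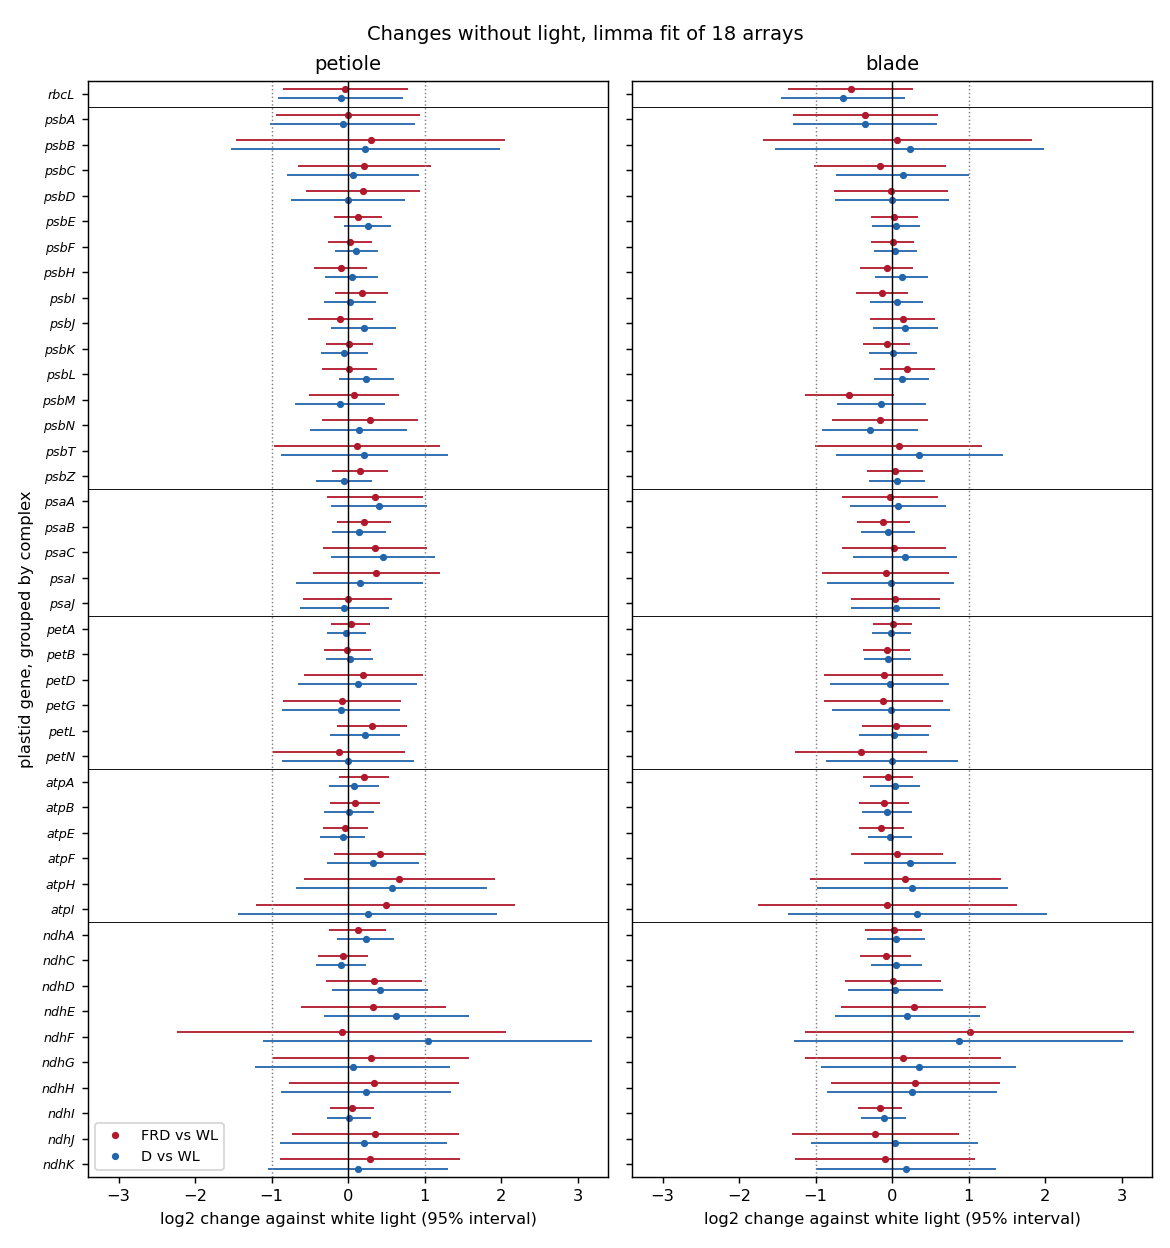
Log2 change against white light of each gene (rows, by complex) for FRD and D in petioles (left) and blades (right), with the 95% interval of the limma fit over 18 arrays; dotted lines mark 2-fold. Every interval crosses 0, and the widest belong to ndhF, psbB and atpI.

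rbcL encodes the large, catalytic subunit of Rubisco, which fixes carbon dioxide. Its ratios in replicates 1 to 3 were 1.03, 0.799 and 1.78 in petiole FRD arrays, 0.985, 0.903 and 1.45 in petiole D arrays, and 1, 0.96 and 1.64 in petiole WL arrays. Blade arrays gave 0.683, 0.696 and 1.10 in FRD, 0.671, 0.609 and 1.04 in D, and 1, 0.836 and 1.94 in WL. Petiole groups overlapped throughout. In blades the dark arrays were low except replicate 3, whose value lay above those of WL replicates 1 and 2.

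The blade change of rbcL was -0.64 ± 0.38 log2 units for D against WL (adjusted p = 0.342) and -0.54 ± 0.38 for FRD against WL (adjusted p = 0.445), and neither was called by limma in the fit that takes no account of the replicate number. The first had the smallest unadjusted p of the 43 genes in that comparison, 0.112. In petioles the changes were -0.097 ± 0.38 and -0.037 ± 0.38. Without the replicate 3 arrays the blade values were -0.52 (adjusted p = 0.0992) for D and -0.41 (adjusted p = 0.18) for FRD. With the replicate block, limma called both blade changes of rbcL, at the same -0.64 (adjusted p = 0.0109) for D and -0.54 (adjusted p = 0.0221) for FRD. The call of rbcL thus depends on whether the replicate number, which the labels do not give as a pairing, enters the fit.

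Among the 15 photosystem II genes the median change against white light was 0.061 for D and 0.11 for FRD in petioles, and 0.056 for D and -0.020 for FRD in blades. psbA encodes D1, the reaction centre protein that is damaged and replaced in the light. It stood at 1.2, 0.76 and 1.93 in petiole FRD, 0.929, 0.931 and 1.76 in petiole D, and 0.927, 1 and 1.89 in petiole WL arrays. In blades its ratios were 0.702, 0.621 and 1.2 for FRD, 0.721, 0.593 and 1.22 for D, and 1, 0.714 and 1.52 for WL. Replicate 3 was the high array in every group, and the groups overlapped. Its changes against WL were -0.35 ± 0.44 for FRD and -0.35 ± 0.44 for D in blades, with adjusted p of 0.712 and 0.705, and within 0.07 of 0 in petioles.

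psbD, for the partner reaction centre protein D2, has a promoter known to respond to blue light. Petiole ratios were 1.37, 1.01 and 1.72 for FRD, 1.03, 1.05 and 1.45 for D, and 1, 0.916 and 1.72 for WL. Blade ratios were 0.773, 0.739 and 1.4 for FRD, 0.709, 0.764 and 1.53 for D, and 1, 0.788 and 1.05 for WL. All groups of a tissue overlapped. Of its light changes, that for FRD against WL in petioles came nearest to the threshold, at 0.20 ± 0.35 (unadjusted p = 0.577). In blades the D change was -0.00024 ± 0.35 with all arrays and -0.27 without the replicate 3 arrays.

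psbM, a small subunit at the contact between the monomers of photosystem II, had the smallest p of all 43 genes. It stood at 0.651, 0.466 and 0.619 in blade FRD arrays, 0.959, 0.664 and 0.701 in blade D arrays, and 1, 1.01 and 0.593 in blade WL arrays. The FRD arrays were below all D arrays, and WL replicate 3 alone brought the WL group into overlap with them. The change for FRD against WL in blades was -0.56 ± 0.27 (unadjusted p = 0.0591, adjusted p = 0.232), and -0.87 (adjusted p = 0.0878) without the replicate 3 arrays. Petiole ratios of psbM were 0.934, 0.844 and 1.34 for FRD, 0.808, 0.903 and 0.999 for D, and 1, 0.698 and 1.29 for WL, and these groups overlapped.

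The other photosystem II genes gave smaller values. psbE, which encodes a cytochrome b559 subunit, stood at 0.26 ± 0.14 for D against WL in petioles, where its unadjusted p of 0.0982 was the smallest of the 43. Its D arrays there all lay above its WL arrays. psbT and psbB, which share an operon, had the highest blade and petiole values of the complex, at 0.35 ± 0.51 for psbT in D against WL in blades and 0.29 ± 0.82 for psbB in FRD against WL in petioles. Their errors were larger than the values.

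The cytochrome b6f complex passes electrons from photosystem II towards photosystem I. The 6 plastid genes for it had medians against WL of 0.0077 for D and 0.0092 for FRD in petioles, and -0.017 and -0.094 in blades. petL, for a small stabilising subunit, gave 1.23, 0.993 and 1.03 in petiole FRD, 0.877, 1.09 and 1.09 in petiole D, and 1, 0.609 and 1.08 in petiole WL arrays. Its blade ratios were 1.21, 0.855 and 0.992 for FRD, 0.978, 0.977 and 1.01 for D, and 0.799, 1 and 1.15 for WL. The low value of petiole WL replicate 2 sits beneath every other petiole array. The change for FRD against WL in petioles was 0.31 ± 0.21 (adjusted p = 0.471), which no other gene of the complex exceeded. petA, for cytochrome f, varied least of the 43 genes, with a residual SD of 0.121 log2 units and changes of -0.022 ± 0.12 for D and 0.032 ± 0.12 for FRD in petioles.

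Photosystem I reduces ferredoxin at the end of the chain. Its 5 genes had medians of 0.15 for D and 0.35 for FRD against WL in petioles, and 0.048 and -0.027 in blades. psaC encodes the subunit that holds the terminal iron-sulphur clusters. Petiole ratios were 1.34, 0.936 and 1.54 for FRD, 1.07, 1.25 and 1.81 for D, and 1, 0.653 and 1.42 for WL. Blade ratios were 0.763, 1.06 and 1.56 for FRD, 1.08, 1.11 and 1.41 for D, and 0.968, 1 and 1.24 for WL. The groups overlapped in both tissues. In petioles psaC stood at 0.46 ± 0.32 for D (adjusted p = 0.5) and 0.35 ± 0.32 for FRD (adjusted p = 0.612), neither called. psaA and psaB, which encode the large core proteins and share a transcript, stood at 0.40 ± 0.29 and 0.14 ± 0.16 for D in petioles.

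ATP synthase makes ATP from the proton gradient across the thylakoid. Its 6 plastid genes had medians against WL of 0.17 for D and 0.31 for FRD in petioles, and 0.13 and -0.058 in blades. atpF, for a stalk subunit, gave 1.62, 1.2 and 2.02 in petiole FRD, 1.22, 1.35 and 2.00 in petiole D, and 1, 0.903 and 1.85 in petiole WL arrays. In blades the ratios were 0.847, 0.914 and 1.31 for FRD, 1.09, 1.11 and 1.2 for D, and 1.02, 0.88 and 1 for WL. Its petiole groups overlapped through WL replicate 3, while in blades each D array lay above each WL array by a small margin. The petiole change for FRD was 0.41 ± 0.28 (adjusted p = 0.464), and 0.56 without the replicate 3 arrays (adjusted p = 0.117). The blade change for D was 0.23 ± 0.28 (adjusted p = 0.701).

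atpH, for the ring subunit that rotates with the proton flow, had the highest FRD change in petioles, 0.67 ± 0.58. atpB and atpE, which encode parts of the catalytic head and stalk and share a transcript, stood close to 0 in both tissues, from -0.14 to 0.093 in the 4 comparisons with WL.

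The NDH complex carries electrons around photosystem I. Of its 10 genes, 9 had positive changes for D against WL in petioles (median 0.22) and 9 in blades (median 0.12). For FRD 8 were positive in petioles (median 0.29) and 6 in blades (median 0.016). ndhD encodes a membrane subunit and its transcript needs editing to create the start codon. Petiole ratios were 1.5, 1.04 and 1.70 for FRD, 1.28, 1.28 and 1.90 for D, and 1, 0.803 and 1.64 for WL. Blade ratios were 0.843, 0.98 and 1.38 for FRD, 1.09, 0.946 and 1.19 for D, and 1, 0.839 and 1.33 for WL. WL replicate 3 overlapped the dark arrays in each tissue. The petiole changes were 0.42 ± 0.29 for D (adjusted p = 0.512) and 0.34 ± 0.29 for FRD (adjusted p = 0.597).

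ndhF, for the largest membrane subunit, was the least reproducible of the 43 genes, with a residual SD of 1.29 log2 units. Its petiole ratios were 0.832, 0.134 and 0.805 for FRD, 1.14, 0.585 and 1.39 for D, and 1, 0.0858 and 1.25 for WL. In blades they were 1.02, 1.57 and 2.13 for FRD, 0.635, 1.66 and 2.39 for D, and 0.289, 1 and 1.44 for WL. The low petiole arrays were those of replicate 2 and the low blade arrays those of replicate 1, at each light treatment. Its values were the highest of the 43 for D in both tissues and for FRD in blades, with errors of about the same size: 1.04 ± 0.999 for D in petioles (adjusted p = 0.67) and 1.01 ± 0.999 for FRD in blades (adjusted p = 0.622).

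**Figure D3:**
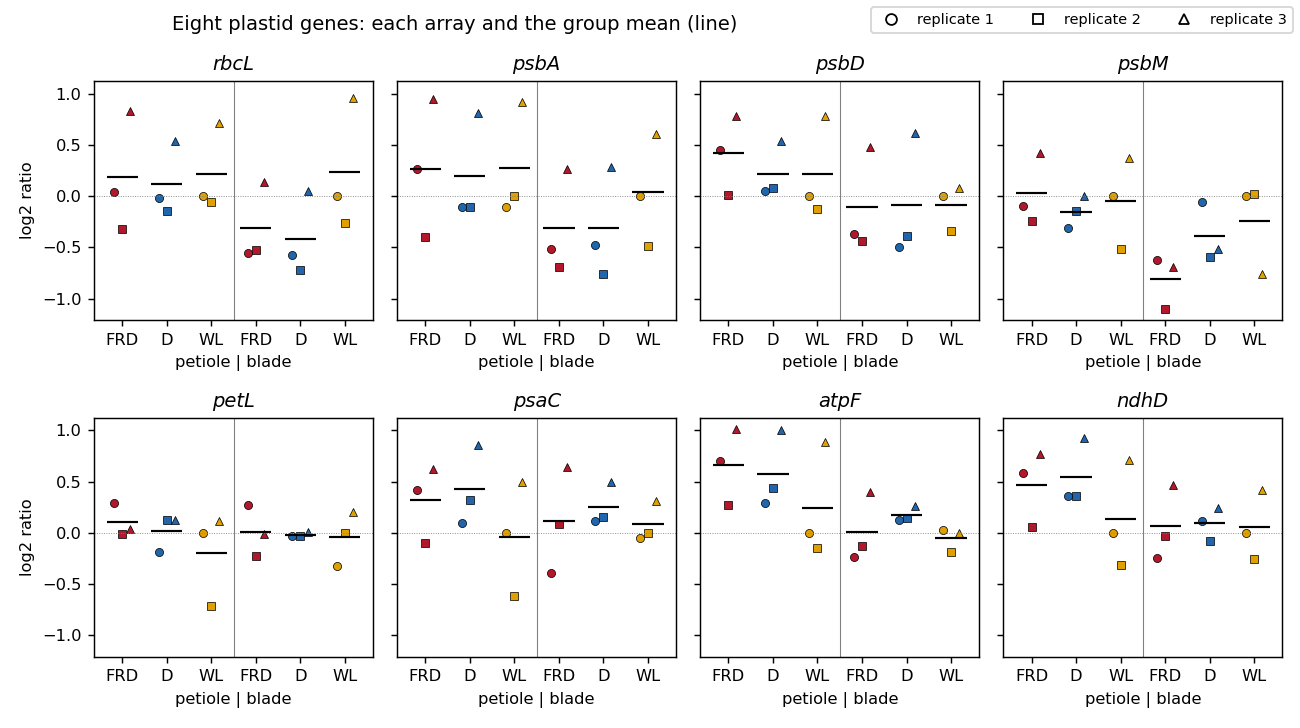
Log2 ratio of 8 genes in each array (points, shaped by replicate number and coloured by light treatment), with the mean of each group as a line, petioles left and blades right in each panel. Replicate 3 (triangles) is the highest array of every group for rbcL, psbA, psbD, psaC and ndhD, and the blade FRD arrays of psbM lie below its blade D arrays.

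Whether the arrays of 2 treatments overlapped was read for every gene. Of the 43 genes, 2 had groups that did not overlap for D against WL in petioles (psbE higher, atpE lower), where this held for 26.3% of all probe sets. For FRD against WL in petioles there were 0, beside 26.4%. In blades 1 gene (atpF) did not overlap for D against WL, beside 27.7%, and 0 for FRD against WL, beside 28.1%. For the pulse alone 0 genes in petioles stood beside 13.9%, and 1 in blades (psbM, lower in FRD) beside 10.9%. Whether these shares differ from the background was not tested; replicate 3 lay high for many of the genes in the same arrays.

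Between the tissues, the changes of the plastid genes leaned towards petioles without any gene passing the test. The petiole change minus the blade change had a median of 0.066 for D against WL, 0.22 for FRD against WL and 0.12 for FRD against D. Over all probe sets these medians were 0.00036, 3.5e-05 and -0.0058. The median of the 43 genes varied between arrays of a petiole group with an SD of 0.25 to 0.28 log2 units. For FRD against WL the difference was positive for 38 of 43 genes, and limma called 0 of them beside 0.0352% of all probe sets (7.39% unadjusted). Genes read on the same arrays are not separate replicates, so this count of signs has no test here. Called shares of all probe sets were 0.0044% for D against WL (6.62% unadjusted) and 0% for FRD against D (5.26% unadjusted), with 0 of the 43 in each.

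The tissue difference nearest to the threshold was again that of psbM, 0.64 ± 0.38 for FRD against WL (unadjusted p = 0.121, adjusted p = 0.795). rbcL differed by 0.55 ± 0.54 for D against WL (adjusted p = 0.954). Medians by complex for FRD against WL were 0.33 for photosystem I, 0.31 for ATP synthase, 0.16 for cytochrome b6f, 0.13 for NDH and 0.11 for photosystem II. The 3 comparisons share arrays, so their values are not separate evidence. Without blade D replicate 2, petiole WL replicate 2 or petiole D replicate 3, the median for D against WL was -0.0045, -0.041 or -0.071. For FRD against WL it ran from 0.083 without petiole WL replicate 2 to 0.43 without blade FRD replicate 3. For FRD against D it ran from 0.016 without petiole FRD replicate 3 to 0.27 without petiole FRD replicate 2.

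The far-red pulse, compared with darkness alone, left small values. The median over the 43 genes was 0.062 in petioles, beside -0.018 for all probe sets, with 29 positive and 14 negative. In blades it was -0.065, beside -0.022, with 9 positive and 34 negative, and it ran from -0.22 without blade FRD replicate 3 to -0.015 without blade FRD replicate 1. The petiole median turned negative when single arrays were omitted: -0.018 or -0.068 without replicate 1 or 2 of D, and -0.0016 or -0.14 without replicate 1 or 3 of FRD. Genes with the smallest p were psbJ, for a small photosystem II subunit, at -0.31 ± 0.20 in petioles (unadjusted p = 0.141), and psbM at -0.42 ± 0.27 in blades (unadjusted p = 0.149). All 6 ATP synthase genes and all 5 photosystem I genes were negative in blades, with medians of -0.10 and -0.065. All 6 ATP synthase genes were positive in petioles, with a median of 0.092.

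The spread between replicates of a group followed the replicate number for many of these genes. Replicate 3 was the highest array in all 6 groups for 17 of the 43 genes (39.5%), beside 2.54% of all probe sets. It was the lowest in all 6 for 3 genes (atpE, petB and psaJ, 6.98%), near the 4.53% of all probe sets. Averaged over the groups, replicate 3 exceeded the mean of replicates 1 and 2 by a median of 0.43 log2 units, beside -0.046 for all probe sets. The excess was above 0.5 for 20 of the 43 genes (46.5%), beside 6.72%. This pattern was noticed in these data and has no test here.

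The excess reached 1.75 for psbB, which encodes the photosystem II antenna protein CP47. psbB stood at 1.59, 1.01 and 4.24 in petiole FRD arrays, 1.09, 1.38 and 3.90 in petiole D arrays, and 1, 0.946 and 3.91 in petiole WL arrays. Its replicate 3 value was far above both others whatever the light. At the low end psaJ, for a small photosystem I subunit, had an excess of -0.54. In petioles psaJ gave 1.24, 0.884 and 0.773 for FRD, 0.996, 1.08 and 0.715 for D, and 1, 1.08 and 0.794 for WL, with replicate 3 the lowest each time.

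**Figure D4:**
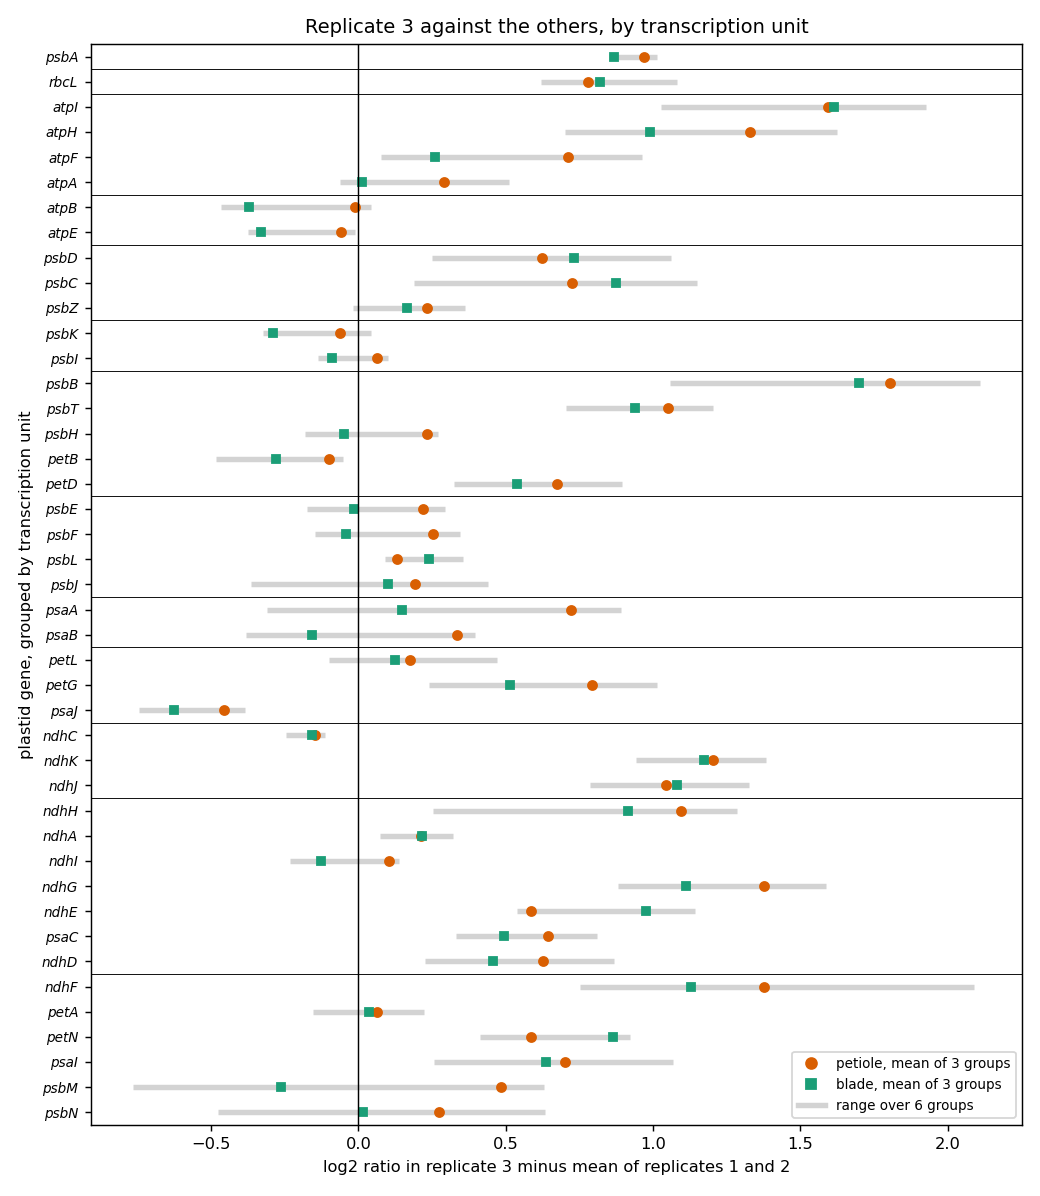
Log2 ratio in replicate 3 minus the mean of replicates 1 and 2, averaged over the 3 groups of petioles (circles) and of blades (squares), with the range over the 6 groups in grey; genes are ordered within the transcription units assigned here. psbB at 1.75 and atpI at 1.61 lie highest and psaJ at -0.54 lowest, and neighbours in one unit can differ by over 1 log2 unit.

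Genes of a transcription unit did not share 1 value of this excess. In the unit atpI-atpH-atpF-atpA, in that order along the transcript, it was 1.61 for atpI, 1.16 for atpH, 0.49 for atpF and 0.15 for atpA. In the psbB unit it was 1.75 for psbB, 0.99 for psbT, 0.092 for psbH, -0.19 for petB and 0.61 for petD. ndhC stood at -0.15 while ndhK and ndhJ, from the same unit, stood at 1.19 and 1.06. In the unit that holds ndhG, the excess ran from 1.24 for ndhG to -0.011 for ndhI. Genes assigned to 1 transcription unit thus had different replicate 3 values on their separate probe sets. Whether those probe sets read 1 joint RNA or separate cut ones was not tested.

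By complex, the median excess was 0.89 for NDH, 0.43 for photosystem I, 0.38 for cytochrome b6f, 0.32 for ATP synthase and 0.15 for photosystem II. psbA stood at 0.92 and rbcL at 0.80. Other organelle genes leaned the same way: the 26 other plastid genes on the array, mainly for ribosomal proteins and RNA polymerase, had a median of 0.36. Of these, 9 (34.6%) were highest in replicate 3 in all 6 groups, beside 2.54% of all probe sets. The 17 probe sets for 10 mitochondrial genes had a median of 0.57. For 11 nuclear photosynthesis genes, whose products join the same complexes or serve Rubisco, the median was -0.25. Of these, 7 (63.6%) were lowest in replicate 3 in all 6 groups, beside 4.53% of all probe sets.

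**Figure D5:**
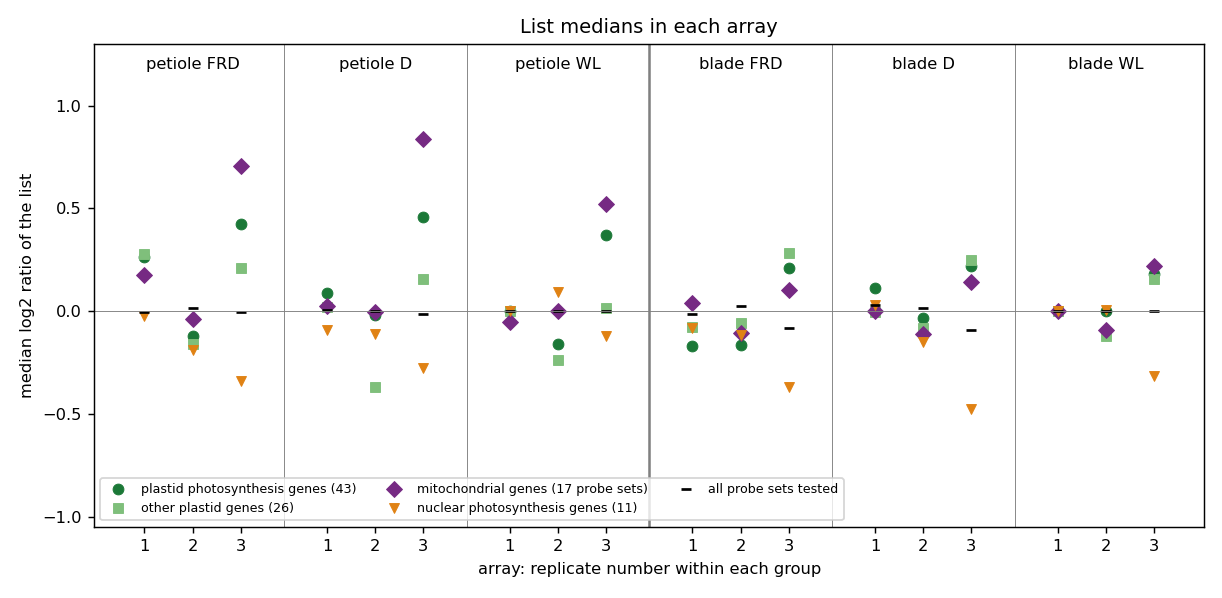
Median log2 ratio of each gene list in each array, by group and replicate number. Plastid and mitochondrial lists lie above 0 and nuclear photosynthesis genes below 0 in all 6 replicate 3 arrays, while the median over all probe sets stays near 0.

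The 11 nuclear photosynthesis genes listed gave mostly values below white light in the same comparisons. They are ATPC1, ATPC2, LHCB4.1, LHCB4.2, LHCB4.3, PSAE-1, PSAN, PSB27, PSBW, PSBY and RCA. The list holds no RBCS or LHCA gene, so it does not stand for nuclear photosynthesis genes in general. All 11 were negative for D in petioles (median -0.19) and in blades (median -0.15), and for FRD 11 were negative in petioles (median -0.17) and 10 in blades (median -0.15). limma called 0 of them. At the unadjusted threshold 1 passed in these 4 comparisons, LHCB4.3, a minor antenna protein of photosystem II, at -0.59 ± 0.26 for FRD in petioles (unadjusted p = 0.0424, adjusted p = 0.218). The 26 other plastid genes had 0 calls in limma and 0 to 1 at the unadjusted threshold in any comparison, with medians against WL from -0.026 to 0.11.

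Nuclear genes known from mutants in plastid transcript processing or the NDH complex did include calls, all of them lower without white light. The list holds 14 genes with CRR, OTP or HCF names. Among them, CRR41 and CRR42 are known for assembly of the NDH complex, OTP43 and OTP87 act in mitochondria, and HCF101 acts in iron-sulphur cluster assembly. Medians were -0.24 for D and -0.33 for FRD in petioles, and -0.46 and -0.57 in blades. For D against WL 2 of 14 were called in petioles, beside 5.6% of all probe sets, and 4 in blades, beside 11.2%. For FRD against WL 2 were called in petioles, beside 8.31%, and 3 in blades, beside 11.2%. Whether these shares differ from the background was not tested. FRD against D gave 0 calls in limma in either tissue, with 1 gene in petioles and 0 in blades at the unadjusted threshold.

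CRR21, needed for editing of the ndhD transcript, gave 0.443, 0.701 and 0.416 in petiole FRD, 0.578, 0.511 and 0.422 in petiole D, and 1, 1.05 and 0.882 in petiole WL arrays. In blades it gave 0.509, 0.556 and 0.425 for FRD, 0.472, 0.44 and 0.537 for D, and 1.13, 1 and 0.881 for WL. Dark and light arrays did not overlap in either tissue. It fell by 0.96 ± 0.20 for D (limma adjusted p = 0.0118) and by 0.95 ± 0.20 for FRD (adjusted p = 0.00832) in petioles, and by 1.05 ± 0.20 (adjusted p = 0.00372) and 1.02 ± 0.20 (adjusted p = 0.00446) in blades.

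CRR42, needed for assembly of the NDH complex, gave 0.479, 0.425 and 0.285 in petiole FRD, 0.566, 0.559 and 0.372 in petiole D, and 1, 1.11 and 0.724 in petiole WL arrays. Blade ratios were 0.525, 0.479 and 0.447 for FRD, 0.499, 0.533 and 0.499 for D, and 0.871, 1 and 1.08 for WL. Here too the dark arrays all lay below the light arrays. The falls in petioles were 0.92 ± 0.22 for D (adjusted p = 0.0243) and 1.26 ± 0.22 for FRD (adjusted p = 0.0028), and those in blades 0.94 ± 0.22 (adjusted p = 0.0127) and 1.02 ± 0.22 (adjusted p = 0.00777).

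OTP84, an editing factor for several plastid transcripts including ndhF and psbZ, gave 0.60, 0.475 and 0.464 in blade FRD, 0.633, 0.496 and 0.574 in blade D, and 1, 1.09 and 0.917 in blade WL arrays. In petioles it gave 0.807, 1.03 and 0.855 for FRD, 1.05, 1.03 and 1.02 for D, and 0.979, 1.13 and 1 for WL. Blade dark arrays lay apart from WL, and petiole arrays overlapped. The blade falls were 0.82 ± 0.14 for D (adjusted p = 0.00181) and 0.97 ± 0.14 for FRD (adjusted p = 0.000596), and the petiole changes were 0.00087 ± 0.14 and -0.21 ± 0.14. The tissue difference was 0.82 ± 0.19 for D (adjusted p = 0.352) and 0.76 ± 0.19 for FRD (adjusted p = 0.285), which was not called.

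CRR28, a further editing factor for ndh transcripts, was called for D in blades, at -0.87 ± 0.25 (adjusted p = 0.0384). That call was lost in 8 of 15 alternatives, among them leaving out blade WL replicate 1 or 3 or blade D replicate 1 or 2 (adjusted p = 0.146, 0.0748, 0.145 and 0.111). All calls in this list were lost with quantile normalization (adjusted p from 0.117 to 0.595). That loss is not particular to these genes. For D against WL, calls over all probe sets fell from 2542 to 160 in blades and from 1274 to 84 in petioles. The setting gives all arrays 1 distribution, although ratios to the WL median spread less in WL arrays than in dark ones. Without the replicate 3 arrays CRR21 was not called in petioles for D (adjusted p = 0.0735) or FRD (adjusted p = 0.0612), nor CRR28 in dark blades (adjusted p = 0.0636). With the compared arrays alone 8 of the 11 calls of these genes were lost. There too calls over all probe sets fell for D against WL, to 447 in blades and 257 in petioles. In dark petioles the call of CRR21 was lost without WL replicate 2 or D replicate 3 (adjusted p = 0.0532 and 0.0594). That of CRR42 was lost without WL replicate 1, WL replicate 2 or D replicate 3 (adjusted p = 0.0905, 0.104 and 0.107). The transcripts of ndhD and ndhF, on which CRR21 and OTP84 act, were not called in any comparison, and ndhF was the least reproducible of the plastid genes described. These ratios give transcript level and not editing, so whether editing of these transcripts changed was not tested.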

How the data were processed

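The deposited values are linear ratios. In all 22810 probe sets the median of the 3 WL arrays of a tissue was exactly 1, so the authors' table was read as a ratio to that median, an inference from the values. Summarisation, background correction and scaling before that step are not given in the sources used here; RNA was labelled with biotin by a standard Affymetrix protocol, per the labels' protocols. Dividing each probe set by its own constant per tissue does not alter its log2 differences within that tissue. It does alter the distribution of values in an array, on which the scalings tried and the floor act. The 75th percentile of log2 ratios averaged 0.093 in blade WL and 0.42 in blade D arrays, and 0.087 and 0.37 in petioles.

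Log2 ratios of 22746 probe sets (64 controls left out) went into limma (version 3.58.1, R 4.3.3) as 6 group means over 18 arrays (12 residual degrees of freedom), empirical Bayes without trend, two-sided tests and Benjamini-Hochberg adjustment over all probe sets per comparison. Errors beside changes are standard errors. Their precision is limited by 3 arrays per group. There were 3 missing values, none in the 43 genes. The fit was tested on simulated data with independent noise in each array, which holds no spread shared by replicate number.

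The genes and lists were chosen with earlier results of these data known. Full values are given for rbcL, psbA, psbD and the gene with the smallest p in each complex; the genes with the highest or lowest value in a comparison may be named too. Others singled out for their replicate spread (psbB, ndhF, psaJ, petA and the members of units) and the CRR and OTP genes called were chosen after their values were seen. Transcription units were assigned from general knowledge. Alternatives were quantile normalization, centred medians, aligned 75th percentiles, a variance trend, array weights, a replicate block, a floor at the 10th percentile of ratios, the compared arrays alone and leaving out arrays. With 1 probe set per gene, a choice among probe sets changed nothing. The RefSeq table was used for names and for the genome a gene lies in. Its coordinates are not printed because the array files name no build of their own.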

Additional observations from a re-analysis of the deposited data

How the results depend on the processing

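No member was called, among the 43, under quantile normalization, centred array medians, a variance trend, array weights, a floor at the 10th percentile of ratios, the compared arrays alone, the omission of any single array (0 to 0 in each comparison) or the omission of all replicate 3 arrays. With the 75th percentiles aligned, 22.1% of all probe sets were called for D against WL in blades and 20.4% for FRD against WL. Beside these shares, 1 gene was called for D against WL in blades, ndhI at -0.45 (adjusted p = 0.0316). For FRD against WL in blades that setting called 3: atpE at -0.45 (adjusted p = 0.0234), ndhI at -0.46 (adjusted p = 0.0288) and psbM at -0.87 (adjusted p = 0.037). Median changes then were -0.16 for D and -0.16 for FRD in petioles, and -0.28 and -0.36 in blades, while the medians of all probe sets were -0.29, -0.31, -0.35 and -0.33. The setting thus shifts all genes by its own construction. The replicate numbers do not pair the samples by the labels, and over all probe sets deviations of arrays of one tissue with the same number correlated at 0.0035 to 0.15, with 6 of 18 pairs above 0.1 and 12 of 18 arrays closest to their own number. Over the 43 genes alone the median was 0.70 and 17 of 18 arrays were closest to their own number, which is a hint from the data and not the design. With the replicate block, 1 gene was called for D against WL in blades (rbcL at -0.64, adjusted p = 0.0109), 1 for FRD against WL in blades (rbcL at -0.54, adjusted p = 0.0221) and 1 for D against WL in petioles (ndhE at 0.63, adjusted p = 0.0365), and 0 in the other 6 comparisons. In these 3 comparisons the block called 14.1%, 14.2% and 8.16% of all probe sets. The block took the median residual SD of the 43 genes to 0.18, against 0.364 without it, and that of all probe sets to 0.28, against 0.326. Over all probe sets, calls for D against WL numbered 1274 in petioles and 2542 in blades, and for FRD against WL 1891 and 2537. Quantile normalization gave 84, 160, 183 and 187 in the same order, the compared arrays alone 257, 447, 590 and 631, and aligned 75th percentiles 2907, 5024, 4385 and 4643. For D against WL in petioles array weights gave 2223 and the omission of all replicate 3 arrays 705. FRD against D gave 249 calls in petioles and 148 in blades, against 33 and 32 with quantile normalization and 14 and 10 with the compared arrays alone. Between tissues the calls numbered 8 or fewer, and 34 or fewer under any of these settings. Of 6579 values of single genes under alternatives, 890 not called in either fit differed in sign from the value reported. Medians ranged, over the omission of single arrays, from -0.065 to 0.28 for D and 0.016 to 0.33 for FRD in petioles, and from 0.0083 to 0.13 and -0.14 to 0.058 in blades. Signal over background is unknown, so what dim probe sets hide cannot be read.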

Other observations

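Among the other plastid genes, rps14, for a ribosomal protein and cotranscribed with psaA and psaB, stood lower in dark petioles than its partners. Its change for D against WL in petioles was -1.16 ± 0.39 log2 units (limma unadjusted p = 0.00996, adjusted p = 0.104), while psaA stood at 0.40 ± 0.29 and psaB at 0.14 ± 0.16. For FRD against D in petioles rps14 stood at 1.05 ± 0.39 (adjusted p = 0.399), and 24 of the 26 other plastid genes were positive there, with a median of 0.14. None of these values was called, and they were singled out after they were seen.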
